A study of Homo sapiens with 11 samples.

Results

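The cytosolic ribosomal protein genes described here are 55 genes, 26 of the small subunit and 29 of the large subunit, out of 20033 protein-coding genes with coordinates on GRCh38. Membership was set by gene name and not by a measured value, but the genes were chosen with earlier results of these data known. Another 30 cytosolic ribosomal protein genes lie outside the set. A peak was assigned to a gene when its summit lay inside the gene's annotated span extended by 5 kb on each side (its window). The comparison set held the 14673 other protein-coding genes with a summit of acetylated histone H3 lysine 27 (H3K27ac) in both control libraries, and is called the background below.

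The study mapped chromatin in human pancreatic ductal adenocarcinoma cell lines by chromatin immunoprecipitation and sequencing (ChIP-seq), and its title concerns MYRF (myelin regulatory factor) and homeostasis of the endoplasmic reticulum. Peak lists of 10 libraries in 5 groups of 2 were analysed. MYRF was mapped in the original, unedited lines CFPAC1, grown in IMDM, and HPAF2, grown in RPMI, with an antibody made in the submitters' laboratory. FOS was mapped in a clonal CFPAC1 line isolated by dilution after infection with the lentiCRISPR vector, with no guide named in the labels. H3K27ac was mapped in a CFPAC1 clone of the same description (MYRFWT, the control) and in a CFPAC1 clone whose vector expressed wild-type Cas9 and a guide RNA against MYRF (MYRFKO, the knockout). Control and knockout were thus both lentivirally infected clones, each group's libraries carry the same clone description, and differences between clones and loss of MYRF cannot be told apart. The labels do not say whether the 2 libraries of a group came from separate cultures, so p-values measure only the spread between libraries, which may be technical.

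Cytosolic ribosomal proteins are assembled with ribosomal RNA into the small subunit, which reads the message, and the large subunit, which forms peptide bonds. Their genes are short, are transcribed in nearly every cell, and often begin transcription at a C within a run of pyrimidines, the TOP start that links translation of their messages to mTOR signalling. MYRF is anchored in the endoplasmic reticulum membrane until it cleaves itself, and its N-terminal part then binds DNA in the nucleus. FOS is a subunit of AP-1, and H3K27ac marks active promoters and enhancers.

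The MYRF lists held 3702 to 4743 peaks, the FOS lists 29087 and 36349, and the H3K27ac lists 107586 to 116466. Read counts are not part of the lists, which leaves depth unknown, and intervals that would need it are not given. The epithelial genes KRT8, KRT18, KRT19, EPCAM and CDH1 carried H3K27ac in all 4 libraries, ALB of hepatocytes carried none, and the neuronal gene RBFOX3 had at most 0.0362% of its window covered. H3K27ac peaks covered 19.6% and 30.8% of the MYRF window in the control and 21.5% and 26.6% in the knockout. Peak lists cannot check the edit itself.

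The promoter stretches below belong to 6 genes with MYRF summits near the start, and are shown because those summits lie within them or close by. They are RefSeq sequence of GRCh38.p14, read 5′ to 3′ on the gene's strand, from 250 bases before the start (109 for RPS18, where the stretch is cut short) through the first 15 transcribed bases. Capitals mark ETS letters (CCGGAAG or its reverse complement), SP/KLF letters (GGGCGG or its reverse complement), a CRE (TGACGTCA) or a TOP start. The coordinates are chr12:56041668-56041932 (plus strand) for RPS26, chr5:150449725-150449989 (minus) for RPS14, chr6:33271966-33272089 (plus) for RPS18, chr15:66504841-66505105 (minus) for RPL4, chr22:39319609-39319873 (minus) for RPL3 and chr16:89560407-89560671 (plus) for RPL13.
RPS26: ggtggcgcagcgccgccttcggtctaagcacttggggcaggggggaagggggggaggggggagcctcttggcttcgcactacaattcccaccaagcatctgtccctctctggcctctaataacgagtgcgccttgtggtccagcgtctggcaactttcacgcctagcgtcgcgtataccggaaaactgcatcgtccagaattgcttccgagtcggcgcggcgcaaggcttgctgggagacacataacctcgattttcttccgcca
RPS14: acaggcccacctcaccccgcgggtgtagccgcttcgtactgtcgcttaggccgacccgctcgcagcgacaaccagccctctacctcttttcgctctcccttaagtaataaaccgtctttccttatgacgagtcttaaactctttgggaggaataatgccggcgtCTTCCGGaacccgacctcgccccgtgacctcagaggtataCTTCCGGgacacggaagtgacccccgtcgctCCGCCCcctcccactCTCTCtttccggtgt
RPS18: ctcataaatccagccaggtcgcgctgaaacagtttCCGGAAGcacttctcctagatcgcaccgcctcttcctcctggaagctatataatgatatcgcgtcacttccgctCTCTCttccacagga
RPL4: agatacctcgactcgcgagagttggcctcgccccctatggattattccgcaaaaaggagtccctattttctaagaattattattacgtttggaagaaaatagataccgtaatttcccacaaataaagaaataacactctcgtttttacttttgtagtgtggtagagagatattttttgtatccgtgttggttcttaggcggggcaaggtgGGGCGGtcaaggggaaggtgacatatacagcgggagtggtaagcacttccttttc
RPL3: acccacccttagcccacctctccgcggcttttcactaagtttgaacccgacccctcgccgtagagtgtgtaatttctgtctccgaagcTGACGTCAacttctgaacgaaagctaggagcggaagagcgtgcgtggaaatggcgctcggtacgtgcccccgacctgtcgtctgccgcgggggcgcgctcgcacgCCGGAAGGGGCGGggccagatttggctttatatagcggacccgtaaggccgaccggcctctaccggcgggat
RPL13: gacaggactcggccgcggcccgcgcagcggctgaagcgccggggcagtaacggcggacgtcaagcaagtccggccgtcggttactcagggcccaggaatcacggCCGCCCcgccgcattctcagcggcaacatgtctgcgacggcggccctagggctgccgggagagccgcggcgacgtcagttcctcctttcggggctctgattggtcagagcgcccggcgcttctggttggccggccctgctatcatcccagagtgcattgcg

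In CFPAC1, 6 of the 55 genes (10.9%) had a MYRF summit in the window in both libraries, against 10.7% of the background. In HPAF2 the count was 7 (12.7%), against 9.7%. At least 1 library had a summit at 14 genes in CFPAC1 (25.5%, against 18.2%) and 19 in HPAF2 (34.5%, against 16.2%). Counts over both libraries were thus close to the background. Ribosomal protein genes are short, with a median span of 5015 bp against 31113 bp in the background, and longer genes offer more room for a summit. Among the 6807 background genes with a span no longer than the longest of the 55 (27.7 kb), 6.23% had MYRF in both CFPAC1 libraries and 5.69% in both HPAF2 libraries. At least 1 of the 4 MYRF lists had a summit at 21 of the 55 genes (38.2%), against 24.9% of the background. All 4 lists had one at 3 of the 55 genes, RPL37, RPS14 and RPS26 (5.45%, against 5.63%).

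Most MYRF summits in these windows lay close to a start. Of the summits at genes with an annotated start, 10 of 11 and 8 of 8 lay within 500 bp of a start in the CFPAC1 libraries, and 6 of 7 and 12 of 13 in the HPAF2 libraries. A window around a short gene holds few bases far from the start, so the same share was taken over windows of background genes with a start and a span of at most 27.7 kb. There it was 30.4% of 621 and 33.3% of 526 summits in CFPAC1, and 32.1% of 467 and 29.9% of 589 in HPAF2. Those genes were still longer, with a median span of 11277 bp, and the difference was not tested. This distance was chosen after the positions were seen, and 45 of the 55 genes have an annotated start in the promoter table used. Of these 45, 5 (11.1%) had such a summit in both CFPAC1 libraries, against 1.92% of the background genes with a start. At least 1 CFPAC1 library had one at 10 of 45 (22.2%), against 4.23%. In HPAF2 the counts were 3 (6.67%) in both libraries, against 1.51%, and 14 (31.1%) in at least 1, against 3.83%. No test of these shares was made, because the genes were chosen with results of these data known.

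**Figure D1:**
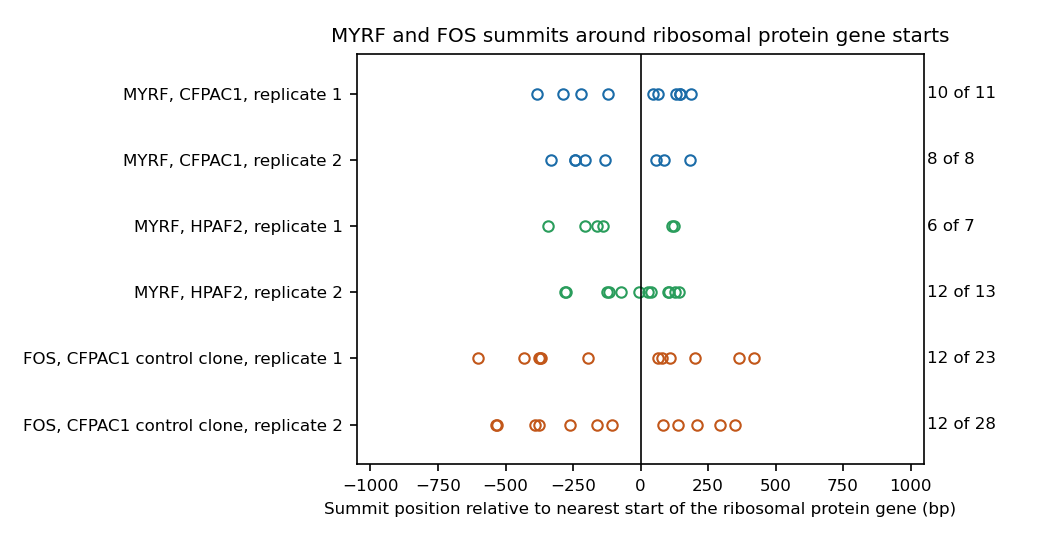
Positions of MYRF and FOS summits (bp) relative to the nearest annotated start of the ribosomal protein gene, by library. Each circle is 1 summit, negative values are upstream, and the numbers at the right give the summits inside the 1000 bp shown of all summits at genes with a start. Nearly all MYRF summits lie in the plotted range, against 12 of 23 and 12 of 28 FOS summits.

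Start-proximal MYRF was also more frequent at strongly acetylated background genes. Among 2898 background genes with a start whose strongest H3K27ac peak ranked at or above the ribosomal protein median in both control lists, 9.59% had a start-proximal MYRF summit in at least 1 CFPAC1 library and 7.56% in at least 1 HPAF2 library. The 30 cytosolic ribosomal protein genes outside the 55 gave 4 and 6 of their 23 genes with a start (17.4% and 26.1%). Translation factors gave 3 and 4 of 31 (9.68% and 12.9%), ribosome biogenesis genes 3 and 1 of 35 (8.57% and 2.86%), and mitochondrial ribosomal proteins 4 and 5 of 69 (5.80% and 7.25%). No difference between these sets was tested.

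**Figure D2:**
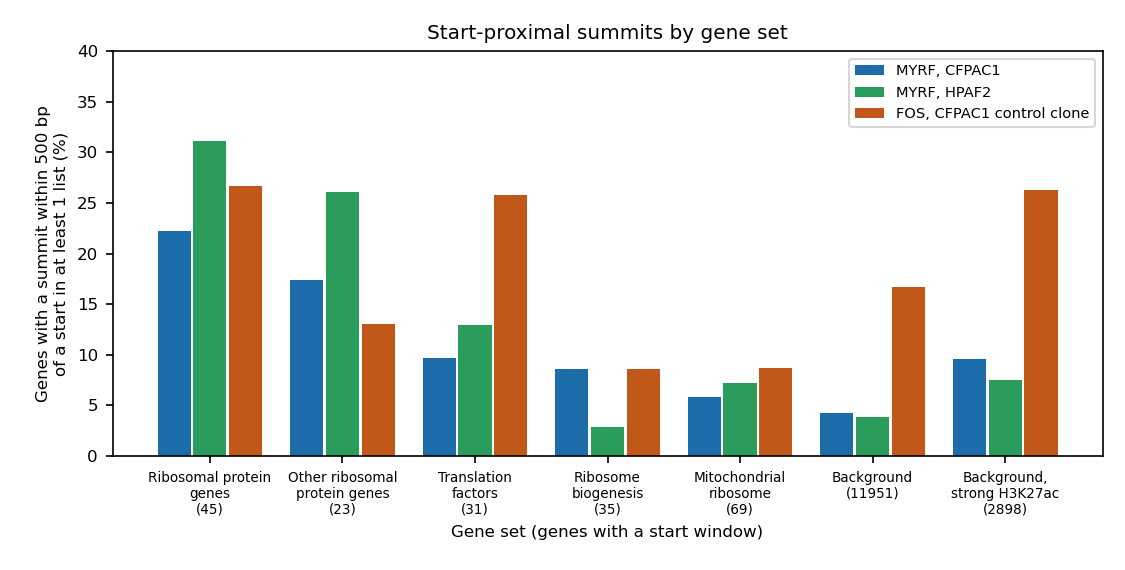
Percentage of genes with a summit within 500 bp of a start in at least 1 library (bars, from 0), for MYRF in CFPAC1, MYRF in HPAF2 and FOS in the CFPAC1 control clone, with the number of genes with a start in parentheses. The ribosomal protein genes stand at 22.2% and 31.1% for MYRF, against 4.23% and 3.83% of the background. In both libraries, which the bars do not show, the shares were 11.1% and 6.67%, against 1.92% and 1.51%.

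Among small-subunit genes, RPS26, whose protein lies at the messenger RNA exit channel and which is a Diamond-Blackfan anaemia gene, had the highest MYRF fold enrichment of the 55 in 3 of the 4 lists, and RPS18 had it in CFPAC1 replicate 1. The fold is the authors' value at the summit and is compared here only within a list. It was 5.82 and 7.41 in CFPAC1 and 9.02 and 8.36 in HPAF2, which ranked at the 64.3, 77.8, 83.5 and 80.9 percentiles of the lists. The summits lay inside the gene at 133, 88, 117 and 129 bp from the start, so all 4 libraries placed MYRF just after the promoter stretch shown above. The HPAF2 replicate 1 peak spanned chr12:56041862-56042318.

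RPS14, a small-subunit gene known for its haploinsufficiency in 5q- syndrome, had folds of 5.89 and 5.14 in CFPAC1, 4.70 in HPAF2 replicate 1, and 4.13 and 5.35 at a pair of summits in HPAF2 replicate 2. The summits lay 220, 131 and 140 bp upstream in the first 3 libraries, and 104 bp downstream and 276 bp upstream in the last. All 4 libraries had a peak, with ranks between the 18.6 and 65.0 percentiles.

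RPS18, whose protein sits in the head of the small subunit, had MYRF folds of 7.41 and 6.94 in CFPAC1 at 286 and 244 bp upstream, a weaker summit of 4.78 at 187 bp inside the gene in replicate 1, and 5.46 in HPAF2 replicate 1. HPAF2 replicate 2 had none. The upstream summits lay inside the neighbouring gene VPS52, so they cannot be assigned to RPS18 alone.

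RPS15A, also of the small subunit, had folds of 6.60 in CFPAC1 replicate 1 and 4.62 and 5.75 in the HPAF2 libraries, and none in CFPAC1 replicate 2. All lay inside the gene, 14 to 154 bp from an end of the span.

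Among large-subunit genes, RPL37 carried a MYRF summit in all 4 libraries, with folds of 4.18 and 3.95 in CFPAC1 and 4.85 and 8.32 in HPAF2. These lay 189, 177, 93 and 119 bp outside the span. The ranks ran from the 14.3 percentile in CFPAC1 replicate 2 to the 80.7 percentile in HPAF2 replicate 2, so the site was recurrent but uneven in strength.

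RPL4, a core protein of the large subunit, had folds of 6.02 and 4.39 in CFPAC1 and 4.57 in HPAF2 replicate 1, at 121, 205 and 205 bp upstream, and none in HPAF2 replicate 2. RPL3, which lies near the peptidyl transferase centre, had a pair of summits in each CFPAC1 library and none in HPAF2. The summits inside the gene, at 147 and 185 bp, had folds of 5.30 and 5.41, and those 383 and 331 bp upstream had 5.02 and 6.57. RPL3 was therefore called in CFPAC1 alone, though whether the lines differ there was not tested.

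RPL5, which joins RPL11 and 5S ribosomal RNA in a particle that binds MDM2, had folds of 4.85 in CFPAC1 replicate 2 and 4.59 and 5.76 in HPAF2. Its summits lay inside the gene at 260, 224 and 127 bp from an end of the span. RPL11 itself had 4.11 in CFPAC1 replicate 1 and 5.62 in HPAF2 replicate 1 and none in either replicate 2, so it did not meet the rule of both libraries.

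RPL13, of the large subunit, had 3.09 in CFPAC1 replicate 2, the 2.19 percentile of that list, and 5.28 and 4.41 in HPAF2, all 161 to 281 bp upstream. RPL22, a large-subunit protein that also binds Epstein-Barr virus RNA, was the exception in position. Its MYRF summits in HPAF2, with folds of 6.61 and 7.78, lay 1858 and 1842 bp beyond the far end of the gene, 16433 and 16417 bp from the start, and in no H3K27ac peak of the CFPAC1 clones.

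RPS27A, which encodes a fusion of ubiquitin to a small-subunit protein, had no MYRF summit in any list. The 7 genes called in a single list were RPL6, RPL15, RPL18, RPL21, RPL23 and RPSA, each in HPAF2 replicate 2, and RPL23A in CFPAC1 replicate 1. Those HPAF2 summits ranked from the 2.21 percentile (RPL15) to the 32.7 percentile (RPL21) of the list. Besides RPL11, the genes RPL24, RPS3 and RPS27 were called in 1 library of each line. Ribosomal protein peaks were of middling strength: the median fold was 4.93 and 4.99 in CFPAC1 and 5.07 and 4.64 in HPAF2, against 5.16, 5.35, 5.33 and 5.35 over all peaks of the lists. All 15 and 10 CFPAC1 summits, and 8 of 10 and 14 of 17 HPAF2 summits, lay inside H3K27ac peaks of all 4 CFPAC1 clone libraries.

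**Figure D3:**
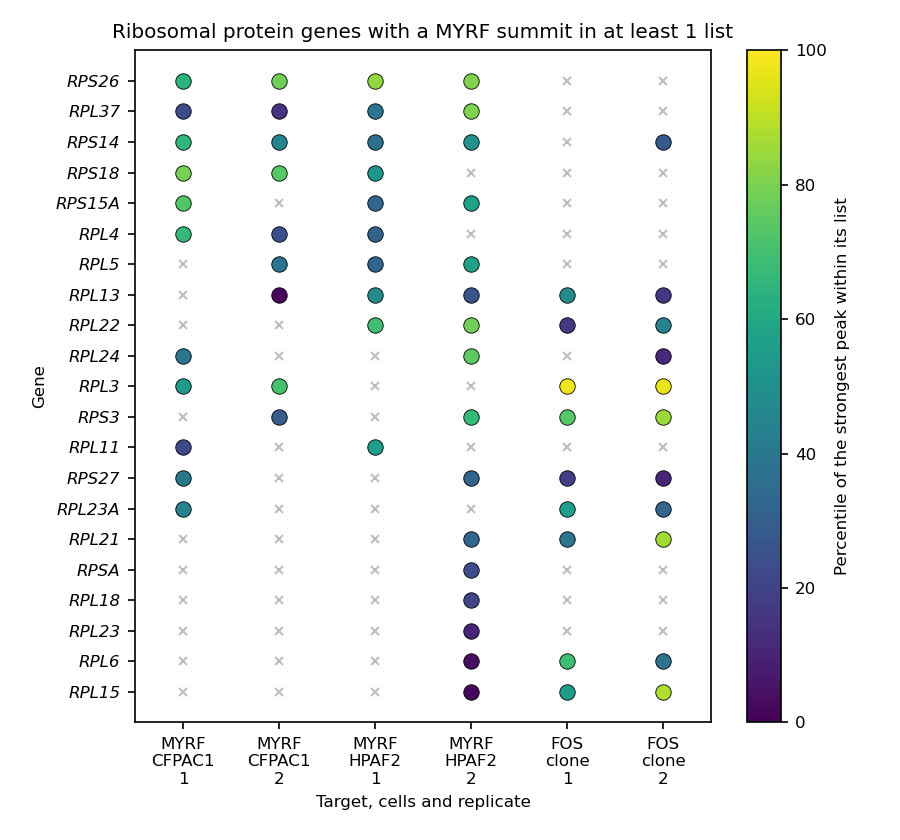
Within-list percentile (colour, 0 to 100) of the strongest MYRF or FOS peak at each of the 21 ribosomal protein genes with a MYRF summit in at least 1 list, by library. Crosses mark no summit, and only RPS26, RPL37 and RPS14 are filled in all 4 MYRF columns.

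FOS had a summit in both libraries at 18 of the 55 genes (32.7%), against 50.1% of the background. Of background genes with a span of at most 27.7 kb, still longer with a median of 11277 bp, 34.4% had one. The 18 ribosomal protein genes were 12 of 29 large-subunit and 6 of 26 small-subunit genes, a difference that was not tested. At least 1 FOS library had a summit at 23 (41.8%), against 60.5%. Within 500 bp of a start, 7 of 45 genes (15.6%) had FOS in both libraries, against 9.17%, and 12 (26.7%) in at least 1, against 16.7%. Of the background genes with strong H3K27ac, 26.3% had the latter. Start-proximal FOS in at least 1 library stood at 9 of 22 large-subunit and 3 of 23 small-subunit genes. In all, 11 of 23 and 10 of 28 FOS summits at genes with a start were start-proximal (47.8% and 35.7%), against 21.7% and 23.5% in the windows of short background genes. Of the 10 genes with MYRF in both libraries of a line, 3 also had FOS in both libraries: RPL3, RPL13 and RPL22. In the background, whose genes are longer, this held for 1749 of 2162. At RPL22 the sites differed, with FOS 66 and 209 bp from the start and HPAF2 MYRF 16433 and 16417 bp from it. FOS at RPL13 lay 3205 and 2757 bp upstream, apart from the MYRF summits.

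RPL3 had the strongest FOS peaks, with folds of 16.2 and 16.1 at 3909 and 3927 bp past the far end of the gene, the 97.8 and 96.8 percentiles of the lists. A second site inside the gene, 3264 and 3267 bp from the start, had 14.6 and 13.5, and another site, 376 bp upstream in both libraries, had 4.72 and 6.15. The upstream site lay within 50 bp of the upstream MYRF summits, whereas both strong FOS sites lay apart from MYRF.

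RPS3, a protein of the small-subunit messenger RNA entry site, had FOS folds of 7.23 and 9.50 at the same position 19614 bp into the gene. RPL15, of the large subunit, had 5.68 and 10.3 inside the gene close to its start, where the gene NKIRAS1 overlaps. RPL21, of the same subunit, had 4.80 and 9.82 at 371 and 537 bp upstream. These 3 genes ranked higher in replicate 2, and the distances between paired summits were under 200 bp.

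RPL6, RPL19 and RPL7 are large-subunit genes. RPL6 had 6.71 and 4.73 at 364 and 351 bp from its start, and RPL19 had 6.54 and 4.82 at 432 and 392 bp upstream. In replicate 2 RPL19 had another summit with a higher fold, 5.25, inside the gene at 138 bp from a start. RPL7 had 4.80 and 4.69 outside its span, 2737 and 2577 bp from an end and inside the neighbouring gene RDH10, so they cannot be assigned to RPL7 alone. In the small subunit, RPS16 had 5.99 and 7.02 and RPS12 had 5.01 and 5.43, all over 2 kb past the far end. RPS9 had pairs of summits over 2 kb past its end, with folds of 3.96 to 4.84. RPS29 counted as called in both libraries, but at different sites. Its summits lay 602 bp upstream, inside LRR1, in replicate 1 and 12557 bp into the gene in replicate 2.

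All 55 genes had an H3K27ac summit in both control and both knockout libraries, against 73.4% and 73.3% of other protein-coding genes. Peaks covered a median of 20.4% and 23.3% of the window in the control and 20.6% and 21.7% in the knockout, against 7.17%, 7.10%, 6.88% and 6.75% in the background. In length this was 3.25, 3.41, 3.28 and 3.39 kb, against 3.03, 2.98, 2.89 and 2.88 kb in the background, whose genes are longer. Background genes with a span of at most 27.7 kb had median shares of 11.8%, 12.2%, 11.8% and 11.4%. Their median lengths were 2.5, 2.5, 2.4 and 2.4 kb. The strongest peak of each ribosomal protein gene ranked at a median percentile of 93.9 and 94.2 in the control and 93.6 and 94.5 in the knockout. In the full background it ranked at 89.0, 89.0, 90.2 and 88.8.

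Coverage ran highest at RPL23A, with 70.1% and 77.3% of the window in the control and 72.3% and 78.5% in the knockout. RAB34, TLCD1 and NEK8 lie in the same window. RPL8 followed at 48.5%, 58.7%, 62.9% and 58.1%, and RPL3 at 41.4%, 50.2%, 48.8% and 49.8%. The lowest shares were at RPS10, with 9.07%, 8.55%, 9.11% and 7.88%, at RPS24, with 10.3%, 10.3%, 9.82% and 9.97%, and at RPL5, with 9.94%, 10.5%, 12.0% and 11.9%. These genes were picked as the extremes of mean share over these same libraries, so their separation follows from that choice.

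At 35, 34, 37 and 35 of the 45 genes with an annotated start, the start base lay inside an H3K27ac peak (77.8%, 75.6%, 82.2% and 77.8%, against 55.5%, 57.3%, 59.2% and 53.9% of background genes). Where a gene had several starts, 1 was used here, not always the one nearest a summit. For RPL6, with 2 starts, the nearest summit in control replicate 1 lay 2408 bp from the start used and 251 bp from the other. The nearest H3K27ac summit lay downstream of the start at 31, 30, 36 and 32 of the 45 genes, at a median distance of 272, 260, 259 and 284 bp on either side.

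The knockout and control clones were compared by the number of bases covered by H3K27ac peaks per window, on the log2(bp + 500) scale, over 15278 genes. No ribosomal protein gene was called higher or lower at a limma adjusted p under 0.05, and neither was any other gene (0% of 15223 in each direction). The smallest adjusted p among the 55 was 0.836. At an unadjusted limma p under 0.05, 0 were higher and 1 was lower, against 1.45% and 4.51% of the other genes. The median difference, knockout minus control, was -0.03 over the 55 and -0.05 over the others, and single genes ran from -0.45 to 0.38. Both knockout libraries exceeded both control libraries at 12 genes (21.8%), against 11.6% of other genes, and fell under both at 12 (21.8%), against 24.3%. When each library was centred on its median, these counts became 19 and 5 (19.1% and 15.4% of other genes). In a design of 2 against 2 an exact two-sided permutation test cannot give a p below 0.333.

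The gene with the unadjusted p under 0.05 was RPS15, a late-assembling protein of the small subunit. Its peaks covered 1.68 and 2.15 kb in the control and 1.14 and 1.38 kb in the knockout, so the groups did not overlap. The difference was -0.45 (SE 0.16, limma unadjusted p = 0.0435, adjusted p = 0.836). Both control libraries had peaks past the gene, with summits 5895 and 7141 bp from the start in replicate 1 and 5881 and 6741 bp in replicate 2, that neither knockout list held, while peaks on both sides of the start were present in all 4.

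Among the other genes lower in the knockout without overlap, RPL19 had 5.22 and 5.56 kb in the control and 5.05 and 4.12 kb in the knockout (log2 difference -0.22). RPL13 had 6.39 and 7.35 against 5.89 and 5.83 kb (-0.21), RPL9 had 3.75 and 4.40 against 3.62 and 3.38 kb (-0.19), and RPS25 had 3.06 and 2.95 against 2.35 and 2.88 kb (-0.18). At each of these 4 genes the gap between the groups was smaller than the wider spread within a clone, and none passed the test.

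In the other direction RPS19, the gene most often mutated in Diamond-Blackfan anaemia, had 3.12 and 2.91 kb in the control and 4.64 and 3.58 kb in the knockout (0.38, SE 0.15, limma adjusted p = 0.842). The knockout lists held additional weak peaks there, none above the 53.3 percentile of its list, while the peaks around the start were present in all 4 libraries. RPS9 had 4.24 and 4.90 against 5.56 and 6.19 kb (0.33), and RPL15 had 2.14 and 1.97 against 2.59 and 2.63 kb (0.29). RPSA, the laminin receptor precursor and a small-subunit protein, had 2.31 and 2.37 against 3.06 and 2.55 kb (0.22), and RPS7, which binds MDM2, had 1.56 and 1.90 against 2.09 and 2.08 kb (0.21). None of these passed the test.

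**Figure D4:**
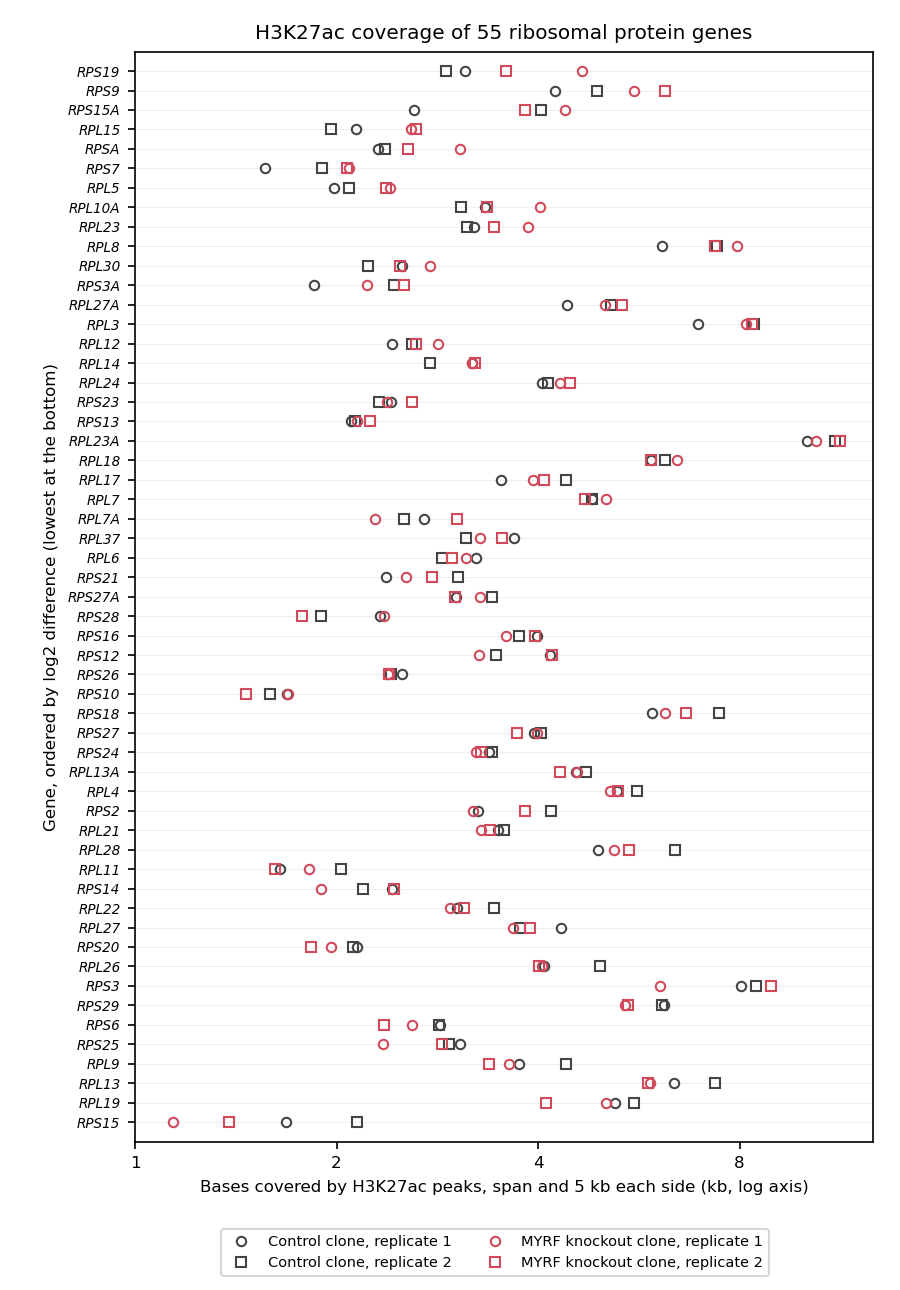
Bases covered by H3K27ac peaks (kb, log axis) in the window of each of the 55 ribosomal protein genes, in both control and both knockout libraries, ordered by the log2 difference. Points of the clones overlap at 31 of the 55 genes, RPS15 stands lowest at -0.45 and RPS19 highest at 0.38, and no difference passed the test.

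The 21 genes with MYRF in at least 1 list had a median log2 difference of -0.0015 and the 34 without had -0.028. Of the 6 with MYRF in both CFPAC1 libraries, 0 were higher in both knockout libraries and 1 was lower, against 11.6% and 24.3% of other genes. The lower one was RPS26, with 2.51 and 2.41 kb in the control and 2.39 and 2.40 kb in the knockout. Differences at these 6 ran from -0.079 to 0.11. Within 1 kb of the start, 5 of 45 genes had more covered bases in both knockout libraries and 8 had fewer, against 10.5% and 14.9% of background genes. The median covered length there was 1777 and 1796 bp in the control and 1782 and 1750 bp in the knockout, out of the 2 kb around a start. These counts also used 1 start per gene, and at RPL6 the start used had 0 covered bases in every library.

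By subunit, 5 of 26 small-subunit genes (19.2%) were higher without overlap and 7 lower (26.9%), and 7 of 29 large-subunit genes (24.1%) were higher and 5 lower (17.2%). Of a list of 14 genes known in Diamond-Blackfan anaemia, not held to be complete, 4 were higher and 4 lower (28.6% each). The 30 other cytosolic ribosomal protein genes had 9 higher and 3 lower (30% and 10%), with a median of 0.055 and none called. All these shares stand beside 11.6% higher and 24.3% lower among the other genes tested, and no difference between the sets was tested.

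The promoter letters were searched on both strands from 250 bases before to 50 after a start. A TOP start, here a C at the start base followed by at least 4 pyrimidines on the sense strand, occurred at 31 of 45 genes (68.9%), against 6.86% of background genes. ETS letters (CCGGAAG) occurred at 15 (33.3%, against 20.1%), YY1 letters (AAGATGGC) at 5 (11.1%, against 5.72%) and SP/KLF letters (GGGCGG) at 25 (55.6%, against 72.9%). An E-box (CACGTG) occurred at 4 (8.89%, against 12.2%), a CRE at 2 (4.44%, against 3.46%), AP-1 letters (TGANTCA) at 2 (4.44%, against 7.69%) and the palindromic NRF1 motif at 1, RPL10A (2.22%, against 2.46%). The MYRF core letters CTGGCAC or CTGGTAC occurred at 2 genes, RPS6 and RPS27A (4.44%, against 9.12%), and at 0 of the 15 genes with a start-proximal MYRF summit. No motifs overlap in the 6 stretches shown, though the ETS and SP/KLF letters of RPL3 adjoin, and a TOP start stands at RPS14 and RPS18. RPL13 has 3 annotated starts and is counted among the 31 for a start other than the one shown. A match is a run of letters, not a measured site. Several summits fall outside the windows searched, some up to 383 bp upstream and others more than 50 bp downstream. All 4 libraries placed the RPS26 summit 88 to 133 bp downstream, for example. The letters under such summits were not searched.

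Features of position were also counted. Another protein-coding gene lay in the window of 40 of the 55, so that peaks there can belong to a neighbour. The same share was not counted in the background. Small nucleolar RNA genes, whose products guide modification of ribosomal RNA, lay inside 22 of the 55 (40%, 50 such genes in all), against 3.09% of the background. RPL3, RPL4, RPL7A, RPL13A and RPL23A held 4 each, the most of the 55.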

How the data were processed

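ChIP-seq peak lists of MYRF, FOS and H3K27ac were analysed. The tools named in the submitters' processing notes are MACS2 2.1.0.20150731, Bowtie2 2.2.6, Trimmomatic 0.38 and SAMtools, and the build is GRCh38. The lists were deposited per library, with a score, the fold enrichment (a ratio) at the summit, and -log10 p and -log10 q per peak. The lowest deposited -log10 q was 1.3. Handling of reads that match several places, which bears on genes with processed copies, and the control used for calling are not given in the sources used here. The HPAF2 input sample was not analysed here.

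Gene spans came from RefSeq GRCh38.p14 and promoter windows (45 of 55 genes matched) from the same build. Calls required a summit in both libraries of a group. H3K27ac coverage was tested with limma 3.58.1 (R 4.3.3, eBayes with trend) on log2(bp + 500), Benjamini-Hochberg adjusted over 15278 genes with a summit in at least 2 of 4 libraries, and the procedure was tested on simulated data. Other steps used Python 3.11.15 and bedtools 2.31.1. Libraries of a group shared no peak of equal interval and fold. The genes and lists were chosen with earlier results of these data known. Genes were named if MYRF was called in both libraries of a line, for the 10 strongest FOS peaks, the 5 largest non-overlapping H3K27ac differences each way, and the 3 highest and 3 lowest coverage shares, with RPL5, RPL11 and RPS27A added. Alternatives covered window size, q-value, assignment, filters, pseudocount, centring and left-out libraries.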

Additional observations from a re-analysis of the deposited data

How the results depend on the processing

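No ribosomal protein gene was called under any limma alternative that kept all libraries, the replicate block included (0 higher, 0 lower, median -0.0271). With no filter on genes, 0.0501% of other genes were called higher and 0.0601% lower. In the rest of these settings no other gene was called. Same-numbered control and knockout libraries did not deviate alike (r = -0.173 between same-numbered deviations across 15278 genes, 2 pairs). So few libraries cannot show whether they were processed together. The crossed pairing also gave 0 and 0. With a -log10 q of at least 10, the counts with MYRF in both libraries fell to 2 in CFPAC1 (4.24% of the background) and 1 in HPAF2 (4.33%), those with FOS fell to 3 (28.3%), and genes higher without overlap to 4 (10.7% of other genes). When a replicate was left out, presence in the lone library sufficed. The MYRF counts in CFPAC1 were then 9 without replicate 1 (13.7% of the background) and 11 without replicate 2 (15.1%). In HPAF2 they were 16 without replicate 1 (13.8%) and 10 without replicate 2 (12.1%). Short-gene backgrounds were 6.23% and 5.69%. Centring the libraries gave a median of 0.0307 (0.0126 over other genes) and 19 higher and 5 lower (19.1% and 15.4% of other genes), a reversal of sign. Windows of 1 kb gave 6 lower (23.3% of other genes) and a median of 0.00449 (-0.0369 over other genes). Leaving out each H3K27ac library in turn, with the lone library assumed to vary like the other clone, gave medians from -0.00977 to 0.0413 (0.0413 without knockout replicate 1, 0.0161 without control replicate 2), 16 to 22 higher and 16 to 24 lower, where 24.3% to 29.3% of other genes were higher and 40.3% to 43.3% lower. The most were 22 higher without control replicate 2 and 24 lower without control replicate 1. The sign of the median thus changed among these settings. Fewer libraries make non-overlap easier, and for the other changes the cause was not tested. Start distances of 250 and 1000 bp gave 5 and 5 genes with MYRF in both CFPAC1 libraries (1.36% and 2.35% of background genes with a start). In HPAF2 they gave 2 and 3 (1.1% and 1.91%). Depth is unknown, and 2 libraries per group limit the precision.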
